A study of Mus musculus with 18 samples.

Results

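Undiff.Spg is a population of germ cells sorted from the testes of adult mice, and it is set here against each of the 5 other populations of the same study. It makes up 3 of 18 RNA-seq libraries, found by their column names in the deposited count matrix; there are 6 groups of 3. Their labels are not explained in the sources used here and are read as follows: Undiff.Spg, undifferentiated spermatogonia; Diff.Spg, differentiating spermatogonia; PreL, preleptotene cells; LZ, leptotene and zygotene cells; PD, pachytene and diplotene cells; RS, round spermatids. Every group came from adult male mice with the transgenes Stracre-GAG-tdTomato on the strain C57BL/6, and all cells were sorted on an Aria 3. Neither the cells in which the Cre is active nor the gates of the sort are given in the sources used here, and no label ties the replicates of a group to different mice. The p-values therefore reflect variation among these libraries alone, part of which may be technical.

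Undifferentiated spermatogonia lie on the basement membrane of the seminiferous tubule and include the stem cells of the male germline. GDNF from Sertoli cells reaches them through the receptor pair GFRA1 and RET, and FGF acts through the ERK kinases; both signals keep the cells renewing. Retinoic acid moves them on to the differentiating stage, in which the receptor KIT appears, and later into meiosis.

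The label was first checked against its markers. Levels are given in CPM, counts scaled to a common library size with TMM factors, and folds as log2 with their standard error. Ret, the signalling receptor for GDNF, had 644, 543 and 559 CPM in Undiff.Spg replicates 1 to 3, against 12.8, 17.8 and 24.1 CPM in Diff.Spg, 0.967, 1.15 and 1.71 CPM in PreL, 0.153, 0.282 and 0.0734 CPM in LZ, 0.458, 0.182 and 0.195 CPM in PD and 0.73, 0.441 and 1.21 CPM in RS. Gfra1, its GDNF-binding partner, had 260.2, 202 and 222 CPM in Undiff.Spg, and the next highest group was RS with 14.2, 14.7 and 12.3 CPM. Egr4, an early growth response transcription factor, had 826, 865 and 870.4 CPM in Undiff.Spg, against 64.2, 63.4 and 63.4 CPM in Diff.Spg and 38.4, 57.1 and 31.9 CPM in PD. For all 3 markers each Undiff.Spg library lay above every library of the other groups. Kit, the receptor of the differentiating stage, went the other way, with 17.7, 18.2 and 15.9 CPM in Undiff.Spg and 647, 532 and 590.1 CPM in Diff.Spg (log2 fold change -5.09 ± 0.16, edgeR adjusted p = 1.09e-11). Of 14 genes listed for differentiating spermatogonia, 9 were called lower in Undiff.Spg than in Diff.Spg and 1 higher. Over all tested genes 9.51% were called lower and 14.8% higher. Stra8, the retinoic acid target that starts meiosis, had 48.6, 50.2 and 49.7 CPM in Undiff.Spg and 1075, 966 and 1121 CPM in LZ (log2 fold change -4.41 ± 0.33).

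Of 46603 genes in the table, 18547 had enough reads to test, and the Undiff.Spg libraries held 11943107 to 13211567 counts, within the 11777947 to 16607462 of all 18. Log2 CPM correlated at 0.991 between each pair of Undiff.Spg replicates, and at 0.945, 0.87, 0.822, 0.484 and 0.348 between the mean of Undiff.Spg and those of Diff.Spg, PreL, LZ, PD and RS, as a description over genes. Undiff.Spg replicate 1 had more leukocyte transcripts than the other libraries: the 14 leukocyte markers summed to 35.5, 7.65 and 9.11 CPM in Undiff.Spg replicates 1 to 3, against 1.37 to 7.16 CPM in the other groups, and Cd74, an antigen-presentation gene of those cells, had 15.5, 0 and 0 CPM. The other 10 of these markers were not tested. Of the 4 that were, 2 were highest, Fcer1g (3.20, 1.88 and 2.71 CPM in Undiff.Spg) and Cd68 (4.11, 2.82 and 3.55 CPM in Undiff.Spg). A marker with few reads in the other groups can reach the test through Undiff.Spg alone, so the 2 of 4 is a description. The 10 Leydig cell markers summed to 22.1, 23.4 and 19.5 CPM in Undiff.Spg, against 10.7 to 44.1 CPM in the other groups, with Lhcgr, the receptor for luteinizing hormone, at 0 in Undiff.Spg. In bulk RNA, fewer cells of a type and less RNA per cell cannot be told apart.

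Undiff.Spg stood nearest to Diff.Spg and farthest from RS. A gene was called at an adjusted p under 0.05 and at least 2-fold in edgeR's quasi-likelihood test, fitted once to all 6 groups. By this rule 2753 genes were higher (14.8% of those tested) and 1763 lower (9.51%) in Undiff.Spg than in Diff.Spg. Against PreL there were 4296 higher (23.2%) and 3271 lower (17.6%), and against LZ 5085 higher (27.4%) and 4496 lower (24.2%). Against PD there were 7255 higher (39.1%) and 6671 lower (36%), and against RS 7765 higher (41.9%) and 6909 lower (37.3%). The 5 comparisons share the Undiff.Spg libraries.

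A gene is called highest here if it was called higher in Undiff.Spg in all 5 comparisons, and lowest if it was called lower in all 5. There were 1345 highest genes (7.25% of those tested) and 310 lowest genes (1.67%). For these counts the group nearest to Undiff.Spg was the one with the highest mean CPM among the other 5. It was Diff.Spg for 978 of the highest genes (72.71%), RS for 127, LZ for 93, PD for 86 and PreL for 61. The smallest of the 5 log2 fold changes had a median of 1.92 over the highest genes, with quartiles of 1.40 and 2.72; 619 genes were at least 4-fold from every group, 262 at least 8-fold, 99 at least 16-fold and 28 at least 32-fold. For the lowest genes the median was -1.57, 88 genes were at least 4-fold and 11 at least 16-fold below every group. Levels of the highest genes were wide: 163 averaged at least 100 CPM in Undiff.Spg, and 398 were under 1 CPM in all 5 other groups. All 3 Undiff.Spg libraries lay above all 15 others for 1339 of the 1345, a pattern that 13.79% of all tested genes had. The genes were called from these same libraries, so the separation largely follows from the selection and is a description.

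The highest genes with the widest gap were taken by the size of their smallest fold among genes of at least 20 CPM in Undiff.Spg. Cdkn1b, which encodes the cyclin-dependent kinase inhibitor p27 (chr6:134920401-134925513, GRCm38), led with 81.9, 84.1 and 86.4 CPM in Undiff.Spg. The other libraries had 0.912, 1.73 and 1.56 CPM in Diff.Spg, 0.114, 0.11 and 0.286 CPM in PreL, 0.537, 0.141 and 0.294 CPM in LZ, 0 CPM in all 3 of PD, and 0, 0 and 0.0863 CPM in RS. The gap to Diff.Spg was 5.88 ± 0.26 on the log2 scale (edgeR adjusted p = 7.37e-10), with no library of another group above 1.73 CPM.

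Negative regulators of the ERK pathway stood beside it. Spry4, a Sprouty protein that dampens receptor tyrosine kinase signalling, had 40.8, 31 and 38.2 CPM in Undiff.Spg and 0.772, 1.08 and 0.809 CPM in Diff.Spg, and no read in PD or RS. Dusp6, the phosphatase that removes phosphate from ERK, had 135, 120.1 and 111 CPM in Undiff.Spg and 1.54, 2.75 and 4.73 CPM in Diff.Spg, with every later library under 1 CPM. Their log2 fold changes against Diff.Spg were 5.34 ± 0.29 and 5.33 ± 0.31. In Dusp6, as in Ret and Gfra1, the Undiff.Spg level was highest in replicate 1 and the Diff.Spg level highest in replicate 3, and the groups did not overlap.

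Transcription factors made up several of the others. Nr2e1, the orphan nuclear receptor TLX known from neural stem cells, had 33.5, 39.3 and 38.3 CPM in Undiff.Spg, and no other library reached 0.9 CPM. Foxc2, a forkhead factor, had 154, 124 and 140.4 CPM in Undiff.Spg, against 1.68, 3.78 and 4.79 CPM in Diff.Spg and at most 0.546 CPM elsewhere. Foxf1, another forkhead factor, had 359, 329.9 and 339.8 CPM in Undiff.Spg and 8.84, 11.7 and 12.2 CPM in Diff.Spg. Both forkhead genes thus had a small Diff.Spg remainder and almost none beyond it. Glis3, a Krüppel-like zinc finger factor, had 384, 381 and 399 CPM in Undiff.Spg and 11.4, 11.9 and 16.4 CPM in Diff.Spg, and came up again at 2.47, 1.55 and 1.27 CPM in PD after 0 to 0.352 CPM in PreL and LZ.

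Receptors, a chemokine and binding proteins were among the remainder. Ptch1, the Hedgehog receptor, had 224, 256 and 249.6 CPM in Undiff.Spg, against 5.19, 7.4 and 7.41 CPM in Diff.Spg and at most 0.423 CPM in any later library (log2 fold change against Diff.Spg 5.18 ± 0.22, edgeR adjusted p = 1.07e-10). Igfbp6, which binds IGF2, had 62.5, 63.3 and 53.9 CPM in Undiff.Spg. Its nearest group was not Diff.Spg, at 0.561, 0.378 and 0.685 CPM, but LZ, at 1.15, 1.41 and 1.32 CPM (5.52 ± 0.26 on the log2 scale). Cxcl12, a chemokine, had 41.7, 51.5 and 49.9 CPM in Undiff.Spg and 1.05, 1.46 and 1.74 CPM in Diff.Spg. Tcl1, a co-activator of the kinase AKT, had 65.8, 52.3 and 51.5 CPM in Undiff.Spg and 0.561, 1.67 and 2.68 CPM in Diff.Spg. The remaining genes of the rule were Gbp2, an interferon-induced GTPase, Gprc5c, an orphan receptor, Cd93, a C-type lectin-like receptor, and Enc1, an actin-binding kelch protein, with averages of 23.3 to 337 CPM in Undiff.Spg and smallest log2 fold changes of at least 5.01. Over these 16 genes and all 5 comparisons the largest edgeR adjusted p was 2.98e-07, of Gbp2.

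**Figure D1:**
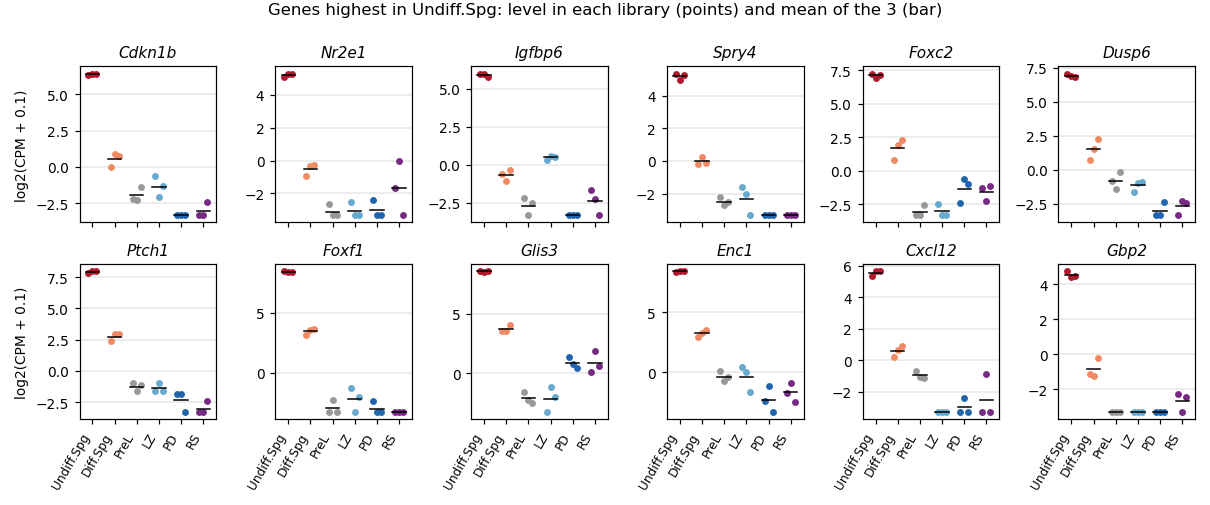
Level of 12 of the highest genes in each library, as log2(CPM + 0.1), with the groups from Undiff.Spg at the left to RS at the right; points are libraries and bars the mean of the 3. In each panel the 3 Undiff.Spg libraries lie above the other 15, with Diff.Spg next in all panels but that of Igfbp6, where LZ is next.

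Among genes of at least 100 CPM the same ranking added Large2, a glycosyltransferase that acts on dystroglycan, Pygl, the liver form of glycogen phosphorylase, and Amot, angiomotin. Large2, which overlaps Pex16 by 194 bases on the other strand, had 396, 422 and 447 CPM in Undiff.Spg, 15.2, 17.6 and 19.9 CPM in Diff.Spg, and again 13.6, 17.7 and 13 CPM in RS after under 1 CPM in PreL and LZ. Pygl averaged 135 ± 4.74 CPM in Undiff.Spg and 6.02 CPM in Diff.Spg (SD, n = 3), and Amot, which is X-linked, 145 ± 7.98 CPM in Undiff.Spg and 6.57 CPM in Diff.Spg. Nanos2, the RNA-binding protein of germline stem cells, was under the 20 CPM of the rule, with 16.1, 12.6 and 10.4 CPM in Undiff.Spg and 0.14, 0.162 and 0.373 CPM in Diff.Spg (5.80 ± 0.41 on the log2 scale).

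For 213 of the highest genes the nearest group by mean CPM was PD or RS. Gfra1 was one of them: beside its 228 ± 29.5 CPM in Undiff.Spg it averaged 8 CPM in Diff.Spg, 0.323 CPM in PreL, 0.141 CPM in LZ, 4.79 CPM in PD and 13.7 CPM in RS (SD, n = 3). Of others named after their values were seen, Zfp462, a zinc finger gene, averaged 509 CPM in Undiff.Spg, 24 CPM in Diff.Spg, 0.966 CPM in PreL, 0.807 CPM in LZ, 2.61 CPM in PD and 32 CPM in RS. Bcl6 and Bcl6b, related transcriptional repressors, had the same order: 49.4 and 58.3 CPM in Undiff.Spg, under 1.5 CPM in PreL and LZ, and 6.63 and 9.33 CPM in RS. Arhgef15 and Bicc1, a guanine nucleotide exchange factor and an RNA-binding protein, were nearest to PD, with 177 and 99 CPM in Undiff.Spg and 10.3 and 8.12 CPM in PD.

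Gene lists give these single genes their setting. They were drawn up with earlier results of these data known, so each is described by how many of its tested members were highest, beside the 7.25% of all genes, and by its median log2 fold change against Diff.Spg, which was 0 over all genes. Of 37 markers of undifferentiated spermatogonia, 32 were highest and none lowest, with a median of 3.01 against Diff.Spg. Beside Egr4 and Ret the most abundant included Zbtb16, the stem cell factor PLZF (581, 637 and 561 CPM in Undiff.Spg, 111, 126 and 108 CPM in Diff.Spg), and Lin28a (499 ± 35.9 CPM in Undiff.Spg and 147 CPM in Diff.Spg), while others, such as Pax7 and Shisa6, were at a few CPM. The gap to Diff.Spg spread widely within the list: Nanos2, Foxc2 and Tcl1 had log2 fold changes above 5, while Foxo1, Mcam, Sox3 and Sall4 lay between 1.20 and 1.35.

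Of the 5 markers that were not highest, Id4, often used to mark the stem cells, was higher in PD: it had 58.5, 51.2 and 42.1 CPM in Undiff.Spg, 2.04, 2.59 and 3.24 CPM in Diff.Spg and 119, 128 and 90.7 CPM in PD (log2 fold change against PD -1.15 ± 0.25, edgeR adjusted p = 0.000442). Pou3f1 differed from Diff.Spg by -0.17 ± 0.22. Rarg, a retinoic acid receptor, was 0.76 ± 0.16 above Diff.Spg, short of 2-fold. Bmi1 was nearly flat outside PD, with 114 CPM in Undiff.Spg and 107 to 146 CPM in Diff.Spg, PreL, LZ and RS. Against PD, 36 of the 37 markers, Bmi1 among them, were called higher in Undiff.Spg, and only Id4 lower. Taf4b was higher in LZ, with 168 CPM in Undiff.Spg and 573 CPM in LZ.

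Genes of GDNF and FGF signalling were among the lists with most highest members. Of 24 GDNF receptor and GDNF-regulated genes 11 were highest (45.8%, median against Diff.Spg 2.29), and 8 of the 11 also stand in the marker list. Its targets Lhx1, Eomes and T, all developmental transcription factors, averaged 21.3, 22.6 and 10.8 CPM in Undiff.Spg and 1.22, 1.47 and 0.588 CPM in Diff.Spg. Of 25 FGF receptors and ERK feedback genes 9 were highest (36%), with a median of 1.46 against Diff.Spg. Beside Spry4 and Dusp6 these were the ETS factors Etv4 and Etv5, the Sprouty genes Spry1 and Spry2, Il17rd, Ier3 and Rasa3, several of them known as inhibitors that ERK signalling induces. Etv5, a factor needed for stem cell renewal, had 116, 95.1 and 105 CPM in Undiff.Spg, 2.1, 3.94 and 5.04 CPM in Diff.Spg and 4.91, 5.42 and 7.34 CPM in LZ, its nearest group. The smallest folds of the 9 were those of Rasa3, a RAS GTPase-activating protein, at 1.13 ± 0.13 against PD, and Spry2, at 1.26 ± 0.27 against PreL.

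Immediate early genes, which growth factors switch on within minutes, followed them: 9 of 31 were highest (29%) and none lowest, with a median of 1.45 against Diff.Spg. The promoters of 3 of them, and of Meioc from among the lowest genes, are printed to show where the letters of known elements stand in genes that were high together. The sequences are the 250 bases before a RefSeq transcript start on GRCm38.p6, 5′ to 3′ on the gene's strand, with matches in capitals.
Egr2, chr10:67537620-67537869 (+): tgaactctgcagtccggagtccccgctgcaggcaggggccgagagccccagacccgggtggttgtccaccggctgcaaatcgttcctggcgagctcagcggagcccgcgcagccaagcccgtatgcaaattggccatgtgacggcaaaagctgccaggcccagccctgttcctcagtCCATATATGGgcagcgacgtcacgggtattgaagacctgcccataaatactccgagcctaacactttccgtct
Zfp36, chr7:28379229-28379478 (-): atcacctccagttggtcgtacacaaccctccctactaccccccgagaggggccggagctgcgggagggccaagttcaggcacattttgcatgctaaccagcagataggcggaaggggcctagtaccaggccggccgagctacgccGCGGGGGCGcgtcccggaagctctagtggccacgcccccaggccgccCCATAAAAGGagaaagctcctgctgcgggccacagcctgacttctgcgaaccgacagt
Egr4, chr6:85513590-85513839 (-): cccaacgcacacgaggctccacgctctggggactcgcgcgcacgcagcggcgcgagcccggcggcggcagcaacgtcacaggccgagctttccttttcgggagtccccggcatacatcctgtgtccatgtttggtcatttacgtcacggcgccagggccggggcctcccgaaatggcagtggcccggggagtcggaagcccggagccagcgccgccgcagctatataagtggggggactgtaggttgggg
Meioc, chr11:102665335-102665584 (+): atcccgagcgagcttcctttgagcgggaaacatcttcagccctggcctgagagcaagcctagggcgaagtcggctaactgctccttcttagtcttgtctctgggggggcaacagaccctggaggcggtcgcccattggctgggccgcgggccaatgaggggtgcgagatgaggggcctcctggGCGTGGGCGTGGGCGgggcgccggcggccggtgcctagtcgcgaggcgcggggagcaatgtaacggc

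In Egr2 the capitals are a CArG box, the element bound by serum response factor, 73 bases before the start. In Zfp36 they are an EGR element, GCGGGGGCG, and a CArG box, at 105 and 58 bases before the start. In Meioc they are 2 overlapping copies of the EGR element GCGTGGGCG, and in Egr4 no element was found. Promoters from 250 bases before to 50 after the start were read on both strands for 952 of the 1345 highest genes, 225 of the 310 lowest and 13184 of the tested genes. A CArG box was in 2.1% of the highest, 0.89% of the lowest and 1.54% of all, and an EGR element (GCGGGGGCG or GCGTGGGCG) in 8.72%, 9.33% and 6.98%. The ETS element CCGGAAGT was in 0.84% of the highest, 5.78% of the lowest and 7.76% of all. The E-box CACGTG was in 10.61%, 6.67% and 10.85%, and the CRE TGACGTCA in 2.31%, 4.44% and 3.3% of the highest, the lowest and all. Of the 9 highest immediate early genes 6 had a promoter in the table, 2 of them with a CArG box and 2 with an EGR element.

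Egr2, which shares its DNA-binding fold with Egr4, had 100.5, 81.2 and 91.3 CPM in Undiff.Spg and 2.74, 4.7 and 5.23 CPM in Diff.Spg (log2 fold change 4.42 ± 0.29). Fos, a subunit of AP-1, had 75.1, 70.2 and 82.8 CPM in Undiff.Spg, 7.51, 8.8 and 7.84 CPM in Diff.Spg and 11.3, 12.1 and 11.4 CPM in LZ, the nearest group. Zfp36, which speeds the decay of AU-rich mRNAs, had 98.6, 94.2 and 88 CPM in Undiff.Spg and 9.83 to 18 CPM in the Diff.Spg, PreL and LZ libraries. In Fos and Zfp36 the 3 groups after Undiff.Spg were at similar levels, and PD and RS were under 1 CPM. Socs3, a feedback inhibitor of cytokine signalling, had 51.3, 56.9 and 55.4 CPM in Undiff.Spg and 4.77, 5.83 and 5.54 CPM in Diff.Spg. The calls of Myc, Atf3 and Ier2, at 1.38, 1.34 and 25.6 CPM in Undiff.Spg, were lost under some settings; DESeq2 called neither Myc (adjusted p = 0.0628) nor Atf3 (adjusted p = 0.0667), and Ier2 was under 2-fold without PreL replicate 2 (0.99 on the log2 scale).

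Genes of insulin, IGF, PI3K and FOXO signalling had 12 of 41 highest (29.3%), with a median of 0.89 against Diff.Spg. Txnip, which inhibits thioredoxin and glucose uptake, had 871, 869 and 831 CPM in Undiff.Spg, 122, 127 and 135 CPM in Diff.Spg and 139, 125 and 141 CPM in PreL. Ddit4, an inhibitor of mTORC1, averaged 86 ± 1.67 CPM in Undiff.Spg, 3.39 CPM in Diff.Spg and 8.51 CPM in PreL (SD, n = 3). Igf1r, the IGF1 receptor, had 312, 294 and 295 CPM in Undiff.Spg and 119, 105 and 111 CPM in Diff.Spg. Foxo1 and Foxo3, factors held out of the nucleus by AKT, averaged 418 and 336 CPM in Undiff.Spg and 164 and 168 CPM in Diff.Spg; Foxo3 lay at the edge of the 2-fold rule, and its log2 fold change was 0.95 when total library size alone set the scale and 0.96 without Undiff.Spg replicate 1.

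The cell cycle lists split. Beside Cdkn1b, Cdkn1c, which encodes the related inhibitor p57, was highest (54, 53.2 and 47.2 CPM in Undiff.Spg, 11.3, 11.8 and 16.7 CPM in Diff.Spg), whereas Cdkn2c, the inhibitor p18 of CDK4 and CDK6, was lowest (3.07, 3.36 and 2.09 CPM in Undiff.Spg, 19.7, 15.9 and 19.9 CPM in Diff.Spg, and 529.8, 538 and 559 CPM in PD). The other 7 of the 10 inhibitors and pocket proteins were neither. Of 11 G1 cyclins and regulators 3 were highest, the D-type cyclin Ccnd2, its kinase Cdk4 and Myc: Ccnd2 had 324, 325 and 314 CPM in Undiff.Spg, 78, 85.1 and 91.8 CPM in Diff.Spg and under 1 CPM in every later library. Against Diff.Spg, 4 of the 11 were called lower and 3 higher, with a median of 0.17. None of 27 mitotic genes and none of 36 replication genes was highest, and 2 mitotic genes, Birc5 and Nusap1, were lowest. Mki67, the proliferation marker, had 120.0, 176 and 181 CPM in Undiff.Spg, 587, 554 and 519 CPM in Diff.Spg and 1589, 960.1 and 856 CPM in PreL. The mitotic list had a median of -0.90 against Diff.Spg, with 11 members called lower and 0 higher, and the replication list a median of -0.51, with 5 called lower and 1 higher. Over all tested genes 9.51% were called lower and 14.8% higher in that comparison. Birc5 was under 2-fold when total library size alone set the scale (-0.81 on the log2 scale).

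WNT, TGF-beta and Notch lists had fewer highest members, 7 of 36 (19.4%), 7 of 34 (20.6%) and 3 of 23 (13%), with medians of 0.07, -0.16 and -0.44 against Diff.Spg. Those that were highest include both receptors and secreted inhibitors. The WNT receptor Fzd2 had 71.2, 79.8 and 65.9 CPM in Undiff.Spg and 5.47, 4.43 and 5.11 CPM in Diff.Spg; the secreted inhibitors Dkk3, Sfrp1 and Sfrp2 averaged 50.5, 41.9 and 32.3 CPM in Undiff.Spg. Fst, follistatin, which binds activin, had 39.1, 36.5 and 30.3 CPM in Undiff.Spg and 4, 3.78 and 3.49 CPM in Diff.Spg, and Smad3, a transducer of TGF-beta and activin, averaged 77.8 and 25.8 CPM in Undiff.Spg and Diff.Spg. In the Notch list Dll3, a ligand-like inhibitor, was lowest, with 1.24, 1.54 and 0.974 CPM in Undiff.Spg, 14.2, 14.5 and 11.9 CPM in Diff.Spg and a mean of 96 CPM in LZ, while Hes1 was highest at 56.9 CPM. Retinoid genes, the Hippo list and the SREBP list were near the background, with 1 of 16, 1 of 18 and 3 of 33 highest. The 1 retinoid gene was Aldh1a3, an enzyme that makes retinoic acid, with 9.65, 6.85 and 7.03 CPM in Undiff.Spg and at most 0.623 CPM in any other library. Of the SREBP list, Srebf2, the master regulator of cholesterol synthesis, averaged 836 ± 13.2 CPM in Undiff.Spg and 375 CPM in Diff.Spg.

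Matrix and adhesion genes were well represented. Of 23 basement membrane and matrix genes 5 were highest (21.7%), among them the laminin chains Lamb1 and Lamc1, the laminin linker nidogen, Nid1, and collagen XVIII, Col18a1. Lamb1 had 322, 312 and 315 CPM in Undiff.Spg and 52.4, 52.7 and 56.3 CPM in Diff.Spg, and Nid1 114, 82.2 and 112 CPM in Undiff.Spg and 5.19, 5.45 and 9.53 CPM in Diff.Spg. Of 30 cadherins, integrins and matrix receptors 8 were highest (26.7%), among them Itga6, a laminin receptor subunit (113 ± 3.87 CPM in Undiff.Spg and 34.6 CPM in Diff.Spg), and Cdh1, E-cadherin (58 ± 2.21 and 12.9 CPM in Undiff.Spg and Diff.Spg). Cdh2, N-cadherin, was lowest, with 12.3, 15.4 and 16.5 CPM in Undiff.Spg and 50.2, 42.8 and 47.6 CPM in Diff.Spg. Col18a1 overlaps Slc19a1 on the other strand, and the strand setting of the counts is not given in the sources used here.

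Genes of transposon silencing and DNA methylation had 4 of 24 highest (16.7%). Piwil4, the PIWI protein MIWI2 of the piRNA pathway, had 47.8, 55.6 and 52.5 CPM in Undiff.Spg, against 8.7, 9.88 and 9.77 CPM in Diff.Spg and under 1 CPM later. Its partner Spocd1 had 55.1, 61.6 and 67.6 CPM in Undiff.Spg, 4.49, 4.91 and 4.05 CPM in Diff.Spg and 13.7, 11.3 and 17.8 CPM in PD, the nearest group. Morc1 averaged 196 ± 19.3 CPM in Undiff.Spg and 49.6 CPM in Diff.Spg, and Tet1, which oxidises methylcytosine, was highest at 2.08 CPM. Of 23 glycolysis genes 4 were highest (17.4%): Pdk1, a pyruvate dehydrogenase kinase (135 ± 4.43 CPM in Undiff.Spg and 12.2 CPM in Diff.Spg), the glucose transporter gene Slc2a1, Pkm and Ldhb. Slc2a1 and Pkm were nearest to LZ, with 102 and 531 CPM in Undiff.Spg and 26.4 and 147 CPM in LZ. Among 29 genes of TRRAP complexes only Trrap itself was highest, with 1132, 1266 and 1449 CPM in Undiff.Spg and 392, 362 and 389.8 CPM in Diff.Spg.

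**Figure D2:**
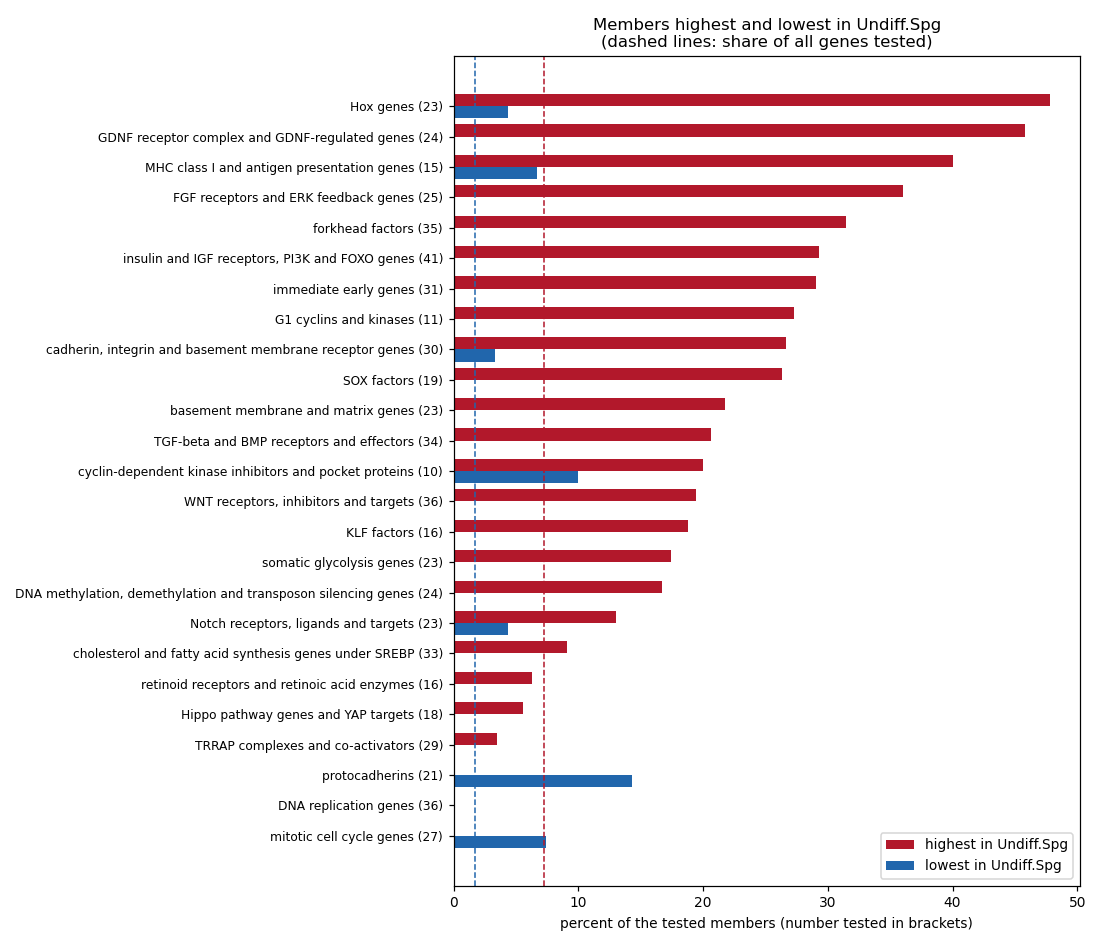
Share of the tested members of each pathway list and of 5 gene families that were highest (red) or lowest (blue) in Undiff.Spg, in percent, with the number tested in brackets; dashed lines give the shares of all genes tested, 7.25% and 1.67%. Hox genes (47.8%) and the GDNF list (45.8%) have the longest red bars among the groups drawn, which leave out the lists made after the values were seen, and the replication list has neither colour. Some Hox and SOX genes, such as Hoxa10 and Sox2, reached the test only through their Undiff.Spg reads.

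Interferon-inducible genes were listed after the values were seen, so their count is a description. Of 44 tested, 23 were highest, 0 lowest, and the median against Diff.Spg was 1.86. Oasl2, of the oligoadenylate synthetase family, had 162, 156 and 152 CPM in Undiff.Spg, 11.5, 14.7 and 13 CPM in Diff.Spg and under 1 CPM in every later library. Irf1, the interferon regulatory factor, had 189.8, 184 and 168 CPM in Undiff.Spg and 37, 40.1 and 39.3 CPM in Diff.Spg, and Cd274, the immune checkpoint ligand PD-L1, 73.7, 76 and 80.1 CPM in Undiff.Spg and 4.35, 3.94 and 4.42 CPM in Diff.Spg. The 14 leukocyte markers summed to 35.5, 7.65 and 9.11 CPM in the same Undiff.Spg libraries, all above the 15 others, and their part in these levels was not tested. Without Undiff.Spg replicate 1, 22 members were highest. Isg15, at 0.831 CPM, was the 1 call lost there, and it was lost under 17 of the settings tried. Gbp2, Gbp3, Trim12a, Trim12c, Irgm1 and Igtp have near-identical relatives, and Dtx3l and Parp9 overlap, so their single levels are uncertain.

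Of 15 antigen presentation genes 6 were highest (40%): the immunoproteasome subunits Psmb8, Psmb9 and Psmb10, the peptide transporter Tap1, the trimming peptidase Erap1 and the class Ib molecule H2-M3. Psmb9 and Tap1, at 6.37 and 2.75 CPM in Undiff.Spg, overlap by 212 bases on opposite strands, so their single levels are uncertain, and Psmb8, at 0.873 CPM, lost its call in DESeq2 (adjusted p = 0.0752). Psmb10 had 119, 103 and 96 CPM in Undiff.Spg and 14.7, 14.9 and 13.1 CPM in Diff.Spg, and Erap1 136, 117 and 117 CPM in Undiff.Spg and 29.5, 30.2 and 33.2 CPM in Diff.Spg. H2-K1, a classical class I heavy chain, was instead among the lowest, with 3.78, 4.16 and 3.41 CPM in Undiff.Spg, 34.6, 39 and 37.4 CPM in Diff.Spg, 712, 1000.0 and 1086 CPM in LZ and 25, 30.5 and 26.9 CPM in RS. Class I genes share long stretches of sequence, so the level of H2-K1 is uncertain.

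Hedgehog genes, also listed after the values were seen, had 4 of 13 highest. Beside Ptch1 these were Gli1 and the co-receptors Gas1 and Cdon, all at much smaller gaps: Gli1, the transcriptional target of the pathway, had only 2.74, 2.75 and 2.37 CPM in Undiff.Spg and 1.26, 0.972 and 1.12 CPM in Diff.Spg (log2 fold change 1.23 ± 0.41, edgeR adjusted p = 0.0236), and Cdon 65, 59 and 68.5 CPM in Undiff.Spg and 31.4, 30 and 33 CPM in Diff.Spg. The call of Gli1 was lost without any 1 of Undiff.Spg replicates 1 and 2 or of the 3 Diff.Spg replicates, and that of Cdon without Undiff.Spg replicate 3, without Diff.Spg replicate 2 or with total library size alone. Between 2 and 3 of the 13 were highest under each of these settings. Gli1 overlaps Arhgap9, also highest, by 62 bases on the other strand.

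Hox and forkhead genes had high shares of highest members. Of 23 tested Hox genes 11 were highest (47.8%) and 1 lowest. Hoxc4 stood out by its gap, with 18.1, 18.9 and 20.7 CPM in Undiff.Spg, 0.421, 0.378 and 0.436 CPM in Diff.Spg and at most 0.11 CPM in any later library. The others were low in absolute terms, at 1.05 to 9.88 CPM in Undiff.Spg. Some, such as Hoxa10, Hoxc8 and Hoxc10, had at most 0.311 CPM in any library of the other groups. Such genes reached the test only through their Undiff.Spg reads, so the share of 47.8% is a description alone. DESeq2 called neither Hoxb1 (adjusted p = 0.0536) nor Hoxc10 (adjusted p = 0.0686), and Hoxb13 lost its call without Diff.Spg replicate 3. Hoxb1, Hoxb2, Hoxb3 and Hoxb4 are neighbours on chromosome 11 (96318267 to 96368256) and were all highest, with Hoxb4 at 9.13, 10.4 and 10.1 CPM in Undiff.Spg and 1.26, 2.32 and 1.62 CPM in Diff.Spg. The exception was Hoxa4, lowest at 0.718, 0.604 and 0.765 CPM in Undiff.Spg, against 150.0, 157 and 141 CPM in PD; it overlaps Hoxa3 and an antisense gene, and its log2 fold change against LZ was -0.87 without LZ replicate 2. Hoxc8, Hoxc9 and Hoxc10 overlap Hoxc5 on the same strand.

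Of 35 forkhead genes 11 were highest (31.4%) and none lowest. As with the Hox genes, a member with few reads in the other groups can reach the test through Undiff.Spg alone, so this share is a description. Foxo1, Foxo3, Foxo6, Foxp4 and Foxr1 were up to 1.70 above Diff.Spg on the log2 scale, Foxi3 and Foxd1 2.86 and 2.27, and Foxc2, Foxf1, Foxl1 and Foxa2 4.07 to 5.33 above their nearest group. Foxf1, its divergent non-coding neighbour Fendrr, Foxc2 and Foxl1 lie together on chromosome 8 (121054882 to 121130644). Fendrr had 32.9, 34.3 and 46.7 CPM in Undiff.Spg and 1.47, 2 and 2.18 CPM in Diff.Spg, and Foxl1 1.96, 2.15 and 1.46 CPM in Undiff.Spg with no read in Diff.Spg, PreL or LZ. Irf8 and Map1lc3b farther out on each side were also highest, with smaller log2 fold changes of 1.82 and 1.29, whereas Gse1, Cox4i1, Mthfsd, Fbxo31 and Zcchc14 of the same stretch were neither. Of 19 SOX genes 5 were highest (26.3%), led by Sox13, with 273, 251 and 279.9 CPM in Undiff.Spg and 12, 16.9 and 19.6 CPM in Diff.Spg. Sox2, with 1.04, 1.28 and 1.11 CPM in Undiff.Spg and at most 0.311 CPM in any other library, reached the test only through its Undiff.Spg reads. The share of 26.3% is therefore a description alone.

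In all, 419 of the highest genes lay next to another highest gene among the tested genes, in 181 runs, and 10 runs held 4 or 5 genes. Overlapping genes count as neighbours here. With 7.25% of all tested genes highest, some would be neighbours in any order, and that number was not computed. The longest runs were Svs5, Matn4, Rbpjl, Sdc4 and Sys1 on chromosome 2, and Armcx4, Armcx1, Armcx6, Armcx3 and Armcx2 on the X chromosome. Among these, named for their position, Sdc4, a heparan sulfate co-receptor, averaged 670.2 CPM in Undiff.Spg and 36 CPM in Diff.Spg; Matn4, a matrix protein, averaged 42 and 1.81 CPM, and its neighbour Rbpjl, which overlaps it, 5.91 and 0.173 CPM in Undiff.Spg and Diff.Spg. Sys1 had the narrowest gap of that run, with 67 CPM in Undiff.Spg and 31.6 CPM in LZ. The X chromosome held 4.54% of the highest genes, against 4.04% of all tested genes, and 0.968% of the lowest, which is 3 genes.

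Most of the 310 lowest genes peaked late. Their highest group was RS for 125, PD for 109, LZ for 51, PreL for 19 and Diff.Spg for 6. Their nearest group, here the other group with the lowest mean CPM, was Diff.Spg for 186 (60%). The libraries of Undiff.Spg lay below all 15 others for 293 of them, a pattern that 5.89% of all tested genes had. As for the highest genes, this largely follows from the selection. The genes with the widest gap were taken among the 101 that reached at least 20 CPM in every other group.

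Dmrtb1, a DM-domain transcription factor that governs the passage from mitosis to meiosis, led with 11.8, 16.9 and 8.49 CPM in Undiff.Spg. It had 443, 368 and 359 CPM in Diff.Spg, 655, 502 and 795 CPM in PreL, 94.3, 128 and 67.3 CPM in LZ, 1690.0, 1659 and 1864 CPM in PD and 1719, 1627 and 1772 CPM in RS. LZ was thus the nearest group (log2 fold change -2.96 ± 0.25, edgeR adjusted p = 1.76e-08), and its 3 libraries still lay above all 3 of Undiff.Spg. Meioc, which stabilises meiotic transcripts, had 12.8, 14 and 16.6 CPM in Undiff.Spg, 67.3, 67.7 and 64.4 CPM in Diff.Spg, 495, 408 and 406 CPM in PreL, 855, 735 and 775 CPM in LZ, 311, 282 and 288 CPM in PD and 88.7, 101 and 112 CPM in RS. It was the only 1 of 27 genes of meiotic entry and the synaptonemal complex that was lowest, while 25 of them were called lower in Undiff.Spg than in LZ. Over all tested genes 24.2% were called lower in that comparison.

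Several of the rest are enzymes and regulators. Zfp672, a zinc finger gene, had 4.24, 5.04 and 4.1 CPM in Undiff.Spg, 31.1, 33.6 and 32.7 CPM in Diff.Spg and 209.5, 289 and 345 CPM in LZ. Sept5, a septin, had 5.54, 4.83 and 4.38 CPM in Undiff.Spg, 65, 56.8 and 54 CPM in Diff.Spg and 31.2, 36.1 and 27.8 CPM in LZ, its nearest group. Baz1a, a subunit of ISWI chromatin remodellers, had 10.8, 12.8 and 13.3 CPM in Undiff.Spg, 97, 81.6 and 86 CPM in Diff.Spg and 636, 696 and 558 CPM in PD. Letmd1 had a narrow range outside Undiff.Spg: 4.17, 5.24 and 5.91 CPM in Undiff.Spg, and 21.1 to 51.1 CPM over all 15 other libraries.

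Phlpp1, a phosphatase that removes phosphate from AKT, averaged 9.45 ± 1.42 CPM in Undiff.Spg, 64.2 CPM in Diff.Spg and 44.1 CPM in PD, its nearest group (log2 fold change -2.22 ± 0.20). Ncoa1, a nuclear receptor co-activator, averaged 7.68 ± 0.517 CPM in Undiff.Spg and 28.5 CPM in PD, and Mad2l2, a DNA repair and checkpoint protein, 7.78 ± 1.95 CPM in Undiff.Spg and 30.2 CPM in LZ (SD, n = 3). Osbp2, an oxysterol-binding protein, Elovl2, a fatty acid elongase, and Sdf2l1, an endoplasmic reticulum chaperone partner, averaged 4.25, 7.66 and 7.11 CPM in Undiff.Spg, with smallest log2 fold changes of -2.67, -1.90 and -2.05. The largest edgeR adjusted p over the 16 lowest genes of the rule and all 5 comparisons was 1.51e-06, of Man2a2. Sept5 shares 1902 bases with Gp1bb, also lowest, Man2a2 1451 bases with Hddc3, also lowest, and Mad2l2 315 bases with Draxin, so their levels are uncertain.

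**Figure D3:**
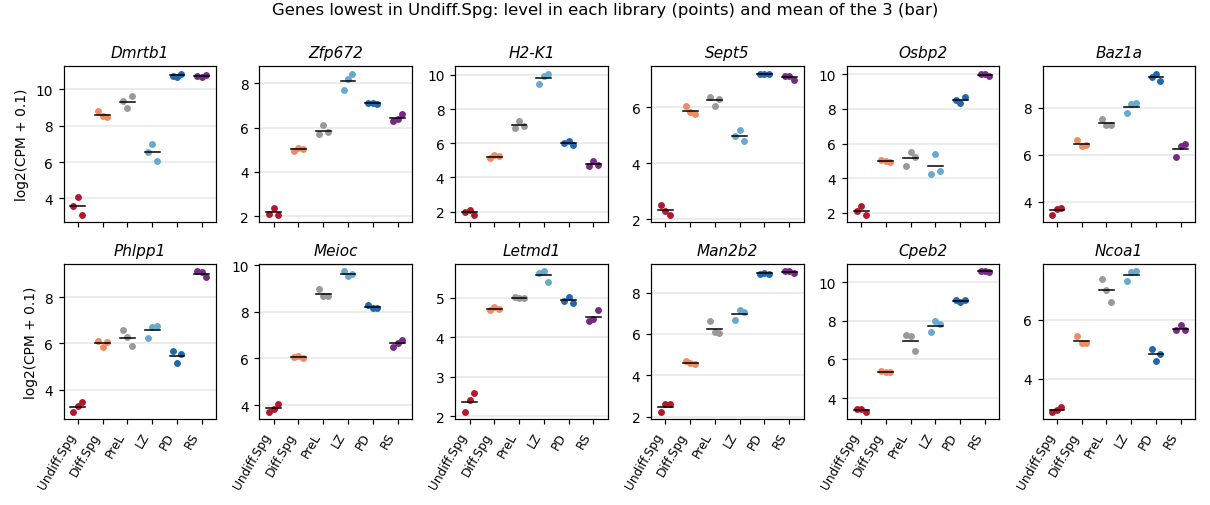
Level of 12 of the lowest genes in each library, as log2(CPM + 0.1), with the groups from Undiff.Spg at the left to RS at the right; points are libraries and bars the mean of the 3. The 3 Undiff.Spg libraries lie below the other 15 in each panel, while the group of the highest level differs between panels, as in Dmrtb1 (PD), Zfp672 (LZ) and Osbp2 (RS).

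Genes of N-glycan synthesis and trimming, listed after the values were seen, had 5 of 41 lowest (12.2%, against 1.67% of all genes) and 1 highest. The 5 act at several steps: Dolpp1 recycles the dolichol carrier, Stt3a transfers the glycan, Man2a2 and Mgat2 build complex glycans in the Golgi and Man2b2 removes mannose in lysosomes. Man2b2 had 4.5, 5.97 and 5.91 CPM in Undiff.Spg, 25.6, 24.4 and 22.9 CPM in Diff.Spg and 528, 527 and 502 CPM in RS. Stt3a had 48.4, 49.8 and 47.2 CPM in Undiff.Spg, 137, 116 and 126 CPM in Diff.Spg and 123, 128 and 127 CPM in RS. The highest member was Mgat4a, another branching enzyme, with 38, 39.9 and 42.4 CPM in Undiff.Spg and 12.6, 11.4 and 12.2 CPM in Diff.Spg. The count of lowest members fell to 2 when total library size alone set the scale. The call of Mgat2 was lost under 8 settings in all. These include leaving out LZ replicate 3 or any single replicate of PD or RS, as at -0.71 on the log2 scale without RS replicate 3. Dolpp1 overlaps Crat, also lowest, by 59 bases on the other strand.

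RNA-binding proteins known for translational control, a list also made after the values were seen, were found on both sides, with 5 of 27 lowest and 4 highest. Cpeb2, a cytoplasmic polyadenylation factor, had 10.5, 10.6 and 9.46 CPM in Undiff.Spg, 42.8, 40.4 and 40.2 CPM in Diff.Spg and 1538, 1533 and 1475 CPM in RS. Ybx2, which binds stored mRNAs of germ cells, had 15.3, 22 and 15.7 CPM in Undiff.Spg, 60.9, 70.2 and 63.6 CPM in Diff.Spg and 5261, 5784 and 5177 CPM in PD. Ago4, an Argonaute protein, averaged 8.73 ± 1.91 CPM in Undiff.Spg and 25.9 CPM in RS, its nearest group. Cpeb4 and Larp1b had smallest log2 fold changes of -1.31 and -1.02. The call of Larp1b was lost under 4 settings, among them RLE scaling and DESeq2 (-0.97 in both). That of Ago4 was lost with total library size alone (-0.76). The highest members were Nanos2, Nanos3, Lin28a and Msi2, and Msi2 had 220.0, 231 and 230.4 CPM in Undiff.Spg and 80.6, 81.3 and 72.4 CPM in RS, its nearest group.

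Among families, 3 of 21 protocadherins were lowest and none highest, all at under 0.5 CPM in Undiff.Spg, as with Pcdh17 at 0.457, 0.47 and 0.278 CPM in Undiff.Spg and 15.7, 26.9 and 30.3 CPM in LZ. Pcdh7 rested on few reads (0.196, 0 and 0 CPM in Undiff.Spg) and its call was lost in 15 of the settings tried. Of 294 solute carrier genes 35 were highest (11.9%) and 2 lowest, and of 65 potassium channel genes 8 were highest (12.3%). Kcne1, 1 of these channels, with at most 0.498 CPM in any library of the other groups, reached the test only through its Undiff.Spg reads. The share of 12.3% is therefore a description. None of 50 large and 2 of 31 small ribosomal subunit protein genes were highest; these genes have near-identical copies. Neither Tex genes (37 tested) nor semaphorins (16) had a highest or lowest member. Bsg, basigin, a partner of lactate transporters, was the 1 lowest gene above 100 CPM in Undiff.Spg, with 141 CPM there, 298 CPM in Diff.Spg and 968 CPM in LZ; it was named after its values were seen.

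Apart from the endothelial and stromal list, markers of other testis cells were mostly low in Undiff.Spg. The part of all these lists in the results was not tested. Of the 19 Sertoli cell markers, Fshr and Inhba had no read in Undiff.Spg and Amh had at most 0.261 CPM; the list summed to 132 to 144 CPM in Undiff.Spg, 82.3 to 88.4 CPM in Diff.Spg and 189 to 242 CPM in LZ, most of it from Ctsl, a protease gene, at 89 to 96 CPM in Undiff.Spg. Its highest members were Trf and Kitl, at 4.73 and 1.46 CPM. The 10 Leydig markers summed to 19.5 to 23.4 CPM in Undiff.Spg, against 10.7 to 44.1 CPM in the others, with Lhcgr at 0, and the 7 myoid markers to 9.46 to 12 CPM, against 6.93 to 238 CPM.

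The 13 endothelial and stromal markers were higher, with sums of 124 to 181 CPM in Undiff.Spg, 37.9 to 44.7 CPM in Diff.Spg and 7.55 to 31.5 CPM elsewhere. Of the 9 that were tested, 7 were called higher and 1 lower than in Diff.Spg, with a median log2 fold change of 2.11. Over all tested genes 14.8% were called higher and 9.51% lower. Of the 9, 3 were highest, against 7.25% of all genes. A marker with few reads elsewhere can reach the test through Undiff.Spg alone, so these counts are a description. Most of the sum was Col1a1, at 82.3, 123 and 134 CPM in Undiff.Spg and 28.1, 29.9 and 31.9 CPM in Diff.Spg, while its partner chain Col1a2 had 0.196, 0 and 0 CPM and the stromal genes Dcn and Lum at most 0.131 CPM. Pecam1 and Cdh5, endothelial adhesion genes, were also highest, at 5.24 and 12 CPM. Of the leukocyte markers Fcer1g and Cd68 were highest, at 3.2, 1.88 and 2.71 CPM and 4.11, 2.82 and 3.55 CPM in Undiff.Spg, and 4 of the 6 erythroid markers had no read there.

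**Figure D4:**
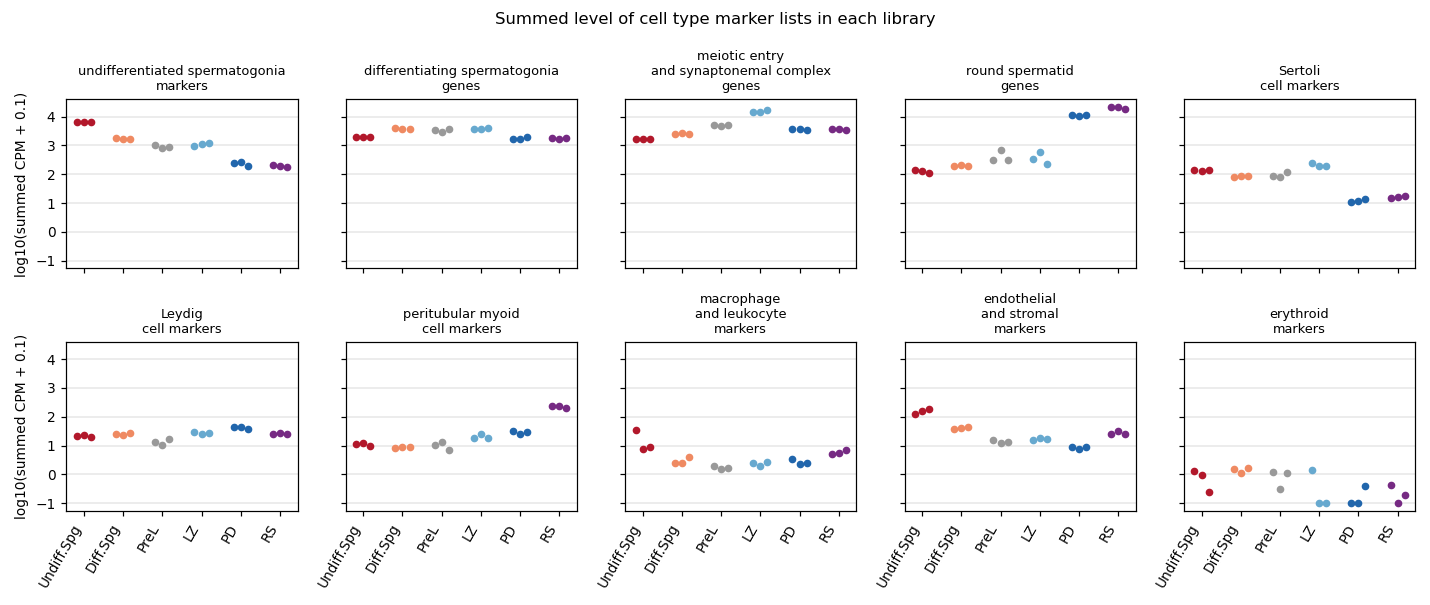
Summed level of the marker lists in each library, as log10(summed CPM + 0.1), with the groups from Undiff.Spg at the left to RS at the right; each point is a library. The markers of undifferentiated spermatogonia are highest in Undiff.Spg, at 6350 to 6648 CPM, and the leukocyte sum of Undiff.Spg replicate 1, at 35.5 CPM, lies above the other 17 libraries.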

How the data were processed

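The deposited table holds whole-number counts per gene that the authors left unscaled. The submitters' processing notes name GRCm38, STAR 2.4.2a, HTSeq, cutadapt and DESeq2 but not what each did, and no source used here gives the annotation release or strand setting. Of 46603 Ensembl IDs, 46091 were named from GENCODE M21 (GRCm38).

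Genes were kept by filterByExpr (18547), scaled by TMM and tested in R 4.3.3 with edgeR 4.0.16 (glmQLFit and glmQLFTest, 2-sided, 1 model of 6 groups, common biological coefficient of variation 0.2025), with Benjamini-Hochberg adjustment within each comparison. Standard errors were taken as |log2 fold change| divided by √F. The script was tested on simulated data. Molecular identifiers are not mentioned, so reads may not be independent molecules.

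Members, lists and named genes were chosen with earlier results of these data known; 5 lists were added after the values were seen. Named genes are the 16 highest of at least 20 CPM and the 10 of at least 100 CPM by smallest fold, the 16 lowest with at least 20 CPM in every other group, 11 fixed genes and list or family members; predicted and Riken genes were left out. Promoters are from RefSeq (GRCm38.p6). Replicates differed by at least 3.7 times the counting variance in Undiff.Spg. Alternatives are given in the closing section.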

Additional observations from a re-analysis of the deposited data

How the results depend on the processing

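The counts of highest and lowest genes held within 1.5 times under RLE scaling (1367 and 294), total library size only (1439 and 262), no filter (1470 and 294), 1 CPM in 3 libraries (1295 and 304), DESeq2 1.42.0 (1287 and 311), each pair of groups fitted alone (1343 and 274), and without PreL replicate 2 and LZ replicate 2 together (1390 and 300). DESeq2 shared 1252 of the highest and 286 of the lowest genes. The fold condition mattered most. With none, 856 genes were lowest, 4273 were higher and 3788 lower than in Diff.Spg, and 5368 lower than in PreL. At 4-fold, 619 were highest and 88 lowest, with 1328 higher and 608 lower against Diff.Spg, 2737 and 1506 against PreL, and 3258 and 2397 against LZ.

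With each library left out in turn, 1314 to 1479 genes were highest and 271 to 321 lowest. Higher and lower genes ranged over 2603 to 2913 and 1597 to 1847 against Diff.Spg, 4236 to 4563 and 2872 to 3535 against PreL, 5048 to 5449 and 3988 to 4854 against LZ, 7283 to 7992 and 6078 to 6849 against PD, and 7792 to 8596 and 6385 to 7164 against RS. The replicate numbers share no stated source. Deviations of same-numbered libraries of Undiff.Spg correlated at 0.02, 0.251 and 0.149 with Diff.Spg, -0.114, 0.223 and -0.039 with PreL, -0.006, 0.239 and 0.102 with LZ, 0.042, 0.045 and 0.026 with PD and 0.086, -0.039 and 0.075 with RS, so no group had all 3 above 0.1. Only with PD did every library of both groups correlate best with its own number, a hint from the data and not the design. With replicate number as a block, 1335 were highest and 313 lowest. Total library size alone moved the median of all genes to 0.75 against PD and 1.06 against RS, from 0.16 and 0.26 under TMM. Of 238 named or list genes, all highest or lowest except Kit, Id4 and Stra8, 32 lost the call under at least 1 alternative and none reversed. Depth limits the genes of a few reads, such as Isg15 and Pcdh7.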

Other observations

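Of 9104 genes averaging at least 10 CPM in Undiff.Spg, 1 was more than 2-fold higher in replicate 1 than in both other replicates: Irx1, an Iroquois transcription factor gene that was itself highest, with 24.1, 11.8 and 11.3 CPM. In replicate 3, 2 genes were more than 2-fold lower. The coefficient of variation over the 3 Undiff.Spg libraries had a median of 6.29% for the 533 highest genes of at least 20 CPM, and of 18.3% for the 310 lowest, which are at lower counts there.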
